A study of Homo sapiens with 3 samples.

Results

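The mitochondrial ribosomal protein genes were examined in untreated H9 cells, an established line of human embryonic stem cells. They were chosen by name, as the protein-coding genes of GENCODE release 44 whose symbol is MRPL or MRPS followed by a number and at most 1 letter. There were 78 such genes among the 58051 genes counted, and each had a row in every replicate. Total RNA was sequenced from 3 replicates of H9 cells after depletion of ribosomal RNA, with no treatment given in the labels, and each replicate gave 1 library. The reads counted on genes numbered 10390984, 12024802 and 8655155 in replicates 1, 2 and 3. The design has a single condition and therefore no test between groups, and every level is a mean ± SD over the 3 replicates (n = 3). The labels do not say whether the replicates were separate cultures, so the SD may cover technical spread alone. In bulk RNA, fewer expressing cells and less RNA per cell cannot be told apart.

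The mitochondrial ribosome translates the few messages of the mitochondrial genome, which encode core subunits of the respiratory chain. Its ribosomal RNAs are transcribed inside the organelle, whereas its proteins are encoded in the nucleus, made in the cytosol and imported. Some of these proteins descend from the bacterial ribosome and others were added during the evolution of mitochondria.

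Levels are given as TPM, a unit per transcript length, which is the deposited count divided by the summed length of a gene's exons and scaled to the same sum in each replicate. The median over the 78 genes was 62.9, 62.1 and 61.0 TPM in replicates 1, 2 and 3, where the median over all 19629 protein-coding genes was 7.10 TPM. Together the 78 genes summed to 6167 ± 112 TPM (SD, n = 3), which was 0.617 ± 0.0112% of all TPM and 0.380 ± 0.00333% of all counted reads. Protein-coding genes were sorted by mean level into the expression classes of the study's methods. Those with less than 0.01 TPM counted as nonexpressed, and the rest fell into low, medium and high classes of equal size, of which the high class started at 27.0 TPM. In this division 63 of the 78 genes (80.8%) were in the high class, 13 in the medium class, 2 in the low class and 0 were nonexpressed. Of all protein-coding genes, 28.8% were in the high class. The gene just inside it was MRPS27 at 27.3 ± 1.11 TPM, and the gene just outside was MRPL40 at 23.0 ± 3.50 TPM. Of the 78 genes, 76 received the same class in each replicate taken alone, against 87.4% of protein-coding genes. The exceptions were MRPS28, which was medium in replicate 3, and MRPL55, which was medium in replicate 2. All 10 markers of pluripotent stem cells examined were in the high class, from 275 TPM for NANOG to 2576 TPM for LIN28A. Of 9 lineage markers, the neural progenitor gene NES was at 327 TPM and the primitive streak gene MIXL1 at 22.3 TPM, and the other 7 had from 1.47 TPM for GATA6 to 7.54 TPM for FOXA2.

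**Figure D1:**
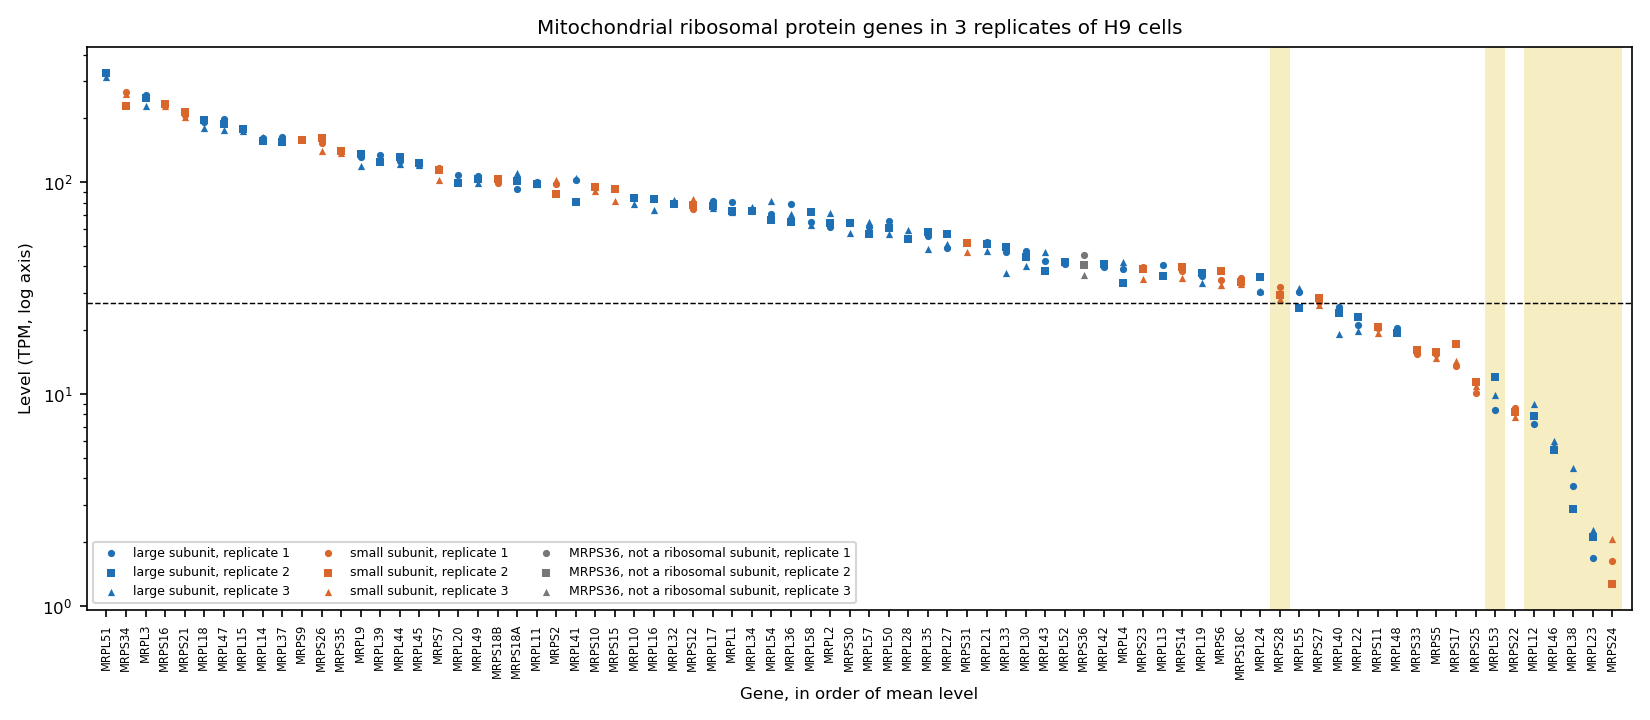
Level of each of the 78 genes in TPM on a log axis, in order of mean level, with a circle, square and triangle for replicates 1, 2 and 3, blue for the large subunit, orange for the small subunit and grey for MRPS36. The dashed line is the start of the high class at 27.0 TPM, and yellow bands mark the 7 genes with shared exons or a copy, which include the 5 lowest.

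With the union of exons as length, the order of the 78 genes was led by MRPL51, a mitochondria-specific protein of the large subunit (ENSG00000111639, GRCh38, chromosome 12, 6491886 to 6493841). MRPL51 had 327, 329 and 313 TPM in the 3 replicates, with a mean of 323 ± 8.49 TPM. It was the highest gene of the family in each replicate, and its difference to the next gene, 71.4 TPM, was larger than the SD of either. It was also first with the canonical transcript as length, at 301 TPM, but not in CPM, where MRPL3 (169) and MRPL42 (168) led. Exons of MRPL51 overlap exons on the opposite strand over 27.6% of their length. Whether the counting used strand is not given in the sources used here. The largest such overlaps in the family were 79.4% for MRPL53, 50.9% for MRPS18A, 42.8% for MRPS22 and 40.2% for MRPS18C. MRPS25 had 39.1% and MRPL43 had 38.1%, and the part of these overlaps in the levels was not tested. Among the large subunit genes after MRPL51, MRPL3, the homologue of a bacterial protein next to the site of peptide bond formation, had 259, 250 and 229 TPM. MRPL18, a protein with a bacterial homologue, had 192, 197 and 181 TPM. Both genes were lowest in replicate 3. MRPL47, related to a bacterial protein at the mouth of the exit tunnel, had 199, 189 and 177 TPM. MRPL15 had 178, 178 and 175 TPM, a coefficient of variation (CV, the SD divided by the mean) of 1.07%. Next in the large subunit came MRPL14 at 160 ± 4.21 TPM and MRPL37 at 160 ± 4.29 TPM, which did not differ beyond their spread.

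With the same length, the small subunit was led by MRPS34, a mitochondria-specific protein (ENSG00000074071, GRCh38, chromosome 16, 1771890 to 1773150). MRPS34 had 265, 228 and 261 TPM, and its exons overlap the opposite strand over 31.2% of their length. Its mean of 252 ± 20.3 TPM did not differ from that of MRPL3 beyond their spread. The lead of MRPS34 depended on the length: with the canonical transcript MRPS7 (185 TPM) and MRPS21 (174 TPM) lay above it (166 TPM). In CPM, where MRPS34 had 69.5, MRPS16 (163), MRPS27 (135), MRPS7 (93.4), MRPS21 (79.3) and MRPS9 (73.8) lay above it. MRPS16, with a homologue in bacteria, had 232, 234 and 228 TPM. MRPS21, also with a homologue in bacteria, had 208, 215 and 204 TPM. These genes held ranks 4 and 5 of the family. MRPS9, homologous to a bacterial protein of the small subunit head, had 161, 158 and 160 TPM, a CV of 0.76%. MRPS26, a mitochondria-specific protein, had 154, 162 and 140 TPM. Along the whole order, 58 of the 77 neighbouring pairs differed by no more than the larger SD of the pair, and 25 pairs kept their order in every replicate. Levels fell gradually, with 22 genes at 100 TPM or more and 41 between that level and the start of the high class. Besides the genes described here and in what follows, the first group held MRPS35, MRPL9, MRPL39, MRPS7 and MRPL49, from 139 to 103 TPM. The second group held 6 further small subunit genes, MRPS2, MRPS10, MRPS15, MRPS31, MRPS23 and MRPS14, from 96.2 to 37.7 TPM. It also held MRPL41, MRPL16, MRPL32, MRPL17, MRPL1, MRPL34, MRPL54, MRPL36, MRPL2, MRPS30, MRPL57, MRPL50, MRPL28, MRPL35, MRPL27, MRPL21, MRPL52, MRPL42, MRPL4, MRPL13 and MRPL24 of the large subunit, from 95.8 TPM for MRPL41 to 32.2 TPM for MRPL24.

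The large subunit, assigned by structure rather than by symbol, comprised 51 of the genes, among them MRPS18A and MRPS30. Its median was 64.5, 64.1 and 64.8 TPM, and 43 of its genes were in the high class. The small subunit comprised 26 genes with a median of 44.2 ± 2.79 TPM, of which 19 were in the high class. The ratio of the medians was 1.40, 1.41 and 1.58 in the 3 replicates, a mean of 1.46 ± 0.102. This ratio turned on the length used for the genes: it was 1.03 with the Ensembl canonical transcript as length and 0.833 in CPM, counts scaled to the library total alone, which do not correct for length, so that the order of the subunits turned. MRPS36, which carries the family's symbol but belongs to the 2-oxoglutarate dehydrogenase complex and not to the ribosome, had 45.3, 40.7 and 36.4 TPM. The 45 genes with a bacterial homologue had a median of 71.2 TPM with 38 in the high class. The 31 mitochondria-specific genes had a median of 61.2 TPM with 23 in the high class.

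Proteins of known task were spread over the order. MRPL10, which anchors the stalk of the large subunit, had 85.4, 83.7 and 79.2 TPM. MRPL11, at the base of the stalk, had 99.9, 98.1 and 97.95 TPM. MRPL12, the stalk protein itself, which recruits translation factors, had 7.23, 7.86 and 8.93 TPM and lay below both in every replicate, and its exons are shared with another gene. MRPL45, which holds the ribosome at the inner membrane beside the tunnel exit, had 120, 123 and 120 TPM, and 30.8% of its coding bases have a near-identical copy elsewhere on chromosome 17. MRPL44, a protein with a ribonuclease III-like domain, had 126, 131 and 122 TPM. Both lay above the upper quartile of the family, 103 TPM. MRPL58, a peptidyl-tRNA hydrolase that also frees stalled ribosomes, had 64.5, 72.5 and 62.6 TPM. MRPS12, the homologue of a bacterial decoding centre protein, had 74.9, 77.8 and 83.5 TPM. MRPS18A, MRPS18B and MRPS18C are 3 related proteins, of which MRPS18A sits in the large subunit and the others in the small subunit. MRPS18C was counted with the bacterial homologues, and MRPS18A and MRPS18B, which sit at other places in the ribosome, with the mitochondria-specific proteins. MRPS18A had 93.2, 101 and 111 TPM. MRPS18B had 99.3, 104 and 105 TPM. MRPS18C had 35.1, 33.8 and 33.1 TPM, below the other 2 genes in every replicate with this length. With the canonical transcript as length MRPS18A, MRPS18B and MRPS18C were at 73.1, 77.9 and 64.5 TPM, and in CPM MRPS18C (41.9) lay above MRPS18A (35.6). The means of MRPS18A and MRPS18B, 102 ± 8.89 and 103 ± 2.99 TPM, differed by less than their spread.

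Low levels within the family went together with shared exons or a second copy in the genome assembly. For 6 of the 78 genes, 50% or more of the canonical transcript overlapped exons of another counted gene on the same strand. For MRPL23 nearly the whole coding sequence had a second copy in the genome assembly. These 7 genes included the 5 lowest of the family, and 6 of the 7 were outside the high class. With the unshared exon bases as length, MRPL12 moved from 8.01 to 19.7 and MRPL53 from 10.1 to 27.9 TPM. MRPS28 moved from 29.8 to 34.8 and MRPL38 from 3.66 to 4.66 TPM. The others of the 7 fell, MRPL46 from 5.66 to 4.79, MRPL23 from 2.02 to 1.51 and MRPS24 from 1.65 to 1.62 TPM. MRPS22, which is not one of the 7, was among the 5 lowest with this length at 6.15 TPM. MRPS24, the homologue of a bacterial small subunit protein (ENSG00000062582, GRCh38, chromosome 7, 43866558 to 43869893), had 1.62, 1.27 and 2.07 TPM from 11, 10 and 12 reads. It was the lowest gene of the family and had its largest CV, 24.4%, where the CV expected from read numbers alone is 30.2%. The canonical transcript of MRPS24 lies to 90.9% in the readthrough gene URGCP-MRPS24, on which 0 reads were counted in all 3 replicates. MRPL23, whose bacterial homologue lies at the tunnel exit (chromosome 11, 1947278 to 1984522), had 1.68, 2.11 and 2.27 TPM from 13, 19 and 15 reads. Of its 459 coding bases, 442 recur with 99.6% identity on an unlocalized scaffold of chromosome 11. Whether that scaffold holds a separate copy of the gene was not tested. MRPL38, a mitochondria-specific protein (chromosome 17, 75898644 to 75905093), had 3.68, 2.87 and 4.45 TPM from 32, 29 and 33 reads, and 94.3% of its canonical transcript lies in a gene with 1, 0 and 0 reads. MRPS24, MRPL23 and MRPL38 were the 3 lowest genes in each replicate.

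MRPL46, a mitochondria-specific protein, had 5.58, 5.42 and 5.98 TPM, and 73.4% of its canonical transcript was shared with a gene with 0 reads. Of its union of exons, 6402 bp, 11.3% was shared, and with its canonical length of 986 bp its level was 22.2 TPM. MRPL12 had 69.5% of its canonical transcript in another gene with 0 reads, and its own counts were 19, 24 and 20 reads. MRPL53 had 8.41, 12.1 and 9.87 TPM from 15, 25 and 15 reads, and 99.2% of its canonical transcript overlapped CCDC142, on which 72, 95 and 78 reads were counted. MRPL53 was thus the 1 gene of the 6 whose partner held more reads than itself. MRPS28 had 31.9, 29.5 and 28.0 TPM with 56.2% of its canonical transcript shared, and was the highest of the 7. The median over the 6 genes with at least 50% shared was 6.83 TPM. That over the 66 genes with none of the canonical transcript shared with a counted gene was 73.5 TPM, and genes with a smaller share were in neither group. Over protein-coding genes the same medians were 0.0707 and 8.12 TPM. Overlaps of at least 50% were found for 7.69% of the family and 4.38% of protein-coding genes. How the counting treated reads on shared or copied exons is not given in the sources used here, and the part of shared exons in these levels was not tested. The highest level was 204 ± 54.3 times the lowest over all 78 genes and 39.4 ± 1.18 times without the 7 genes, and it was 80.7 times over all 78 genes with the canonical length.

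Overlaps below 50% were also found among genes of the high class. MRPS6 shared 33.1% of its canonical transcript and had 34.6, 38.0 and 32.8 TPM. MRPL19 shared 22.3% and had 35.8, 37.1 and 33.4 TPM. MRPL30 shared 12.7% and had 47.1, 44.4 and 40.0 TPM. MRPS6 moved to 97.3 TPM with the canonical length, and MRPL19 and MRPL30 to 24.5 and 28.4 TPM. MRPL9 shared 9.23% and had 132, 136 and 119 TPM, and MRPL42 shared 1.81% at 40.7 TPM. MRPL33, with 46.6, 49.4 and 37.1 TPM, and MRPL20, with 108, 99.4 and 102 TPM, share exons with another gene but none of their canonical transcript.

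Another 9 genes lay outside the high class without belonging to the 7. Of these, 7 had a union of exons longer than 3000 bp, and the median of this length was 5264 bp for the 9 genes and 2172 bp for the 63 genes of the high class. MRPS22, a mitochondria-specific protein of the small subunit, had 8.58, 8.25 and 7.78 TPM over a union of exons of 16385 bp. Its canonical transcript has 1205 bp, and with that length its level was 67.3 TPM. MRPS25 had 10.1, 11.4 and 10.9 TPM over 18309 bp, and 26.1 TPM with the canonical length of 4572 bp. MRPS5 had 15.5, 15.9 and 14.7 TPM over 13738 bp, and 38.6 TPM with the canonical length of 3298 bp. The reads of these 3 genes were not few, with 366, 409 and 283 reads for MRPS22. MRPS17 had 13.5, 17.1 and 14.4 TPM and shares 29.4% of its canonical transcript. MRPS33 had 15.5, 16.1 and 16.2 TPM. MRPS11 had 20.5, 20.8 and 19.3 TPM. These 3 genes stayed at similar or lower levels with the canonical length, at 10.7, 11.9 and 20.2 TPM, respectively. MRPL48 had 20.5, 19.4 and 20.2 TPM. MRPL22 had 21.1, 23.2 and 19.9 TPM. MRPL40 had 25.9, 24.0 and 19.1 TPM. With the canonical length, whose high class started at 26.4 TPM, MRPL48 was at 30.9, MRPL22 at 21.4 and MRPL40 at 24.6 TPM. With that length 15 genes were again outside the high class, 12 of them the same as with the union of exons, and the 5 lowest were again all among the 7. Only 2 of the 5 highest genes were shared by the 2 lengths.

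**Figure D2:**
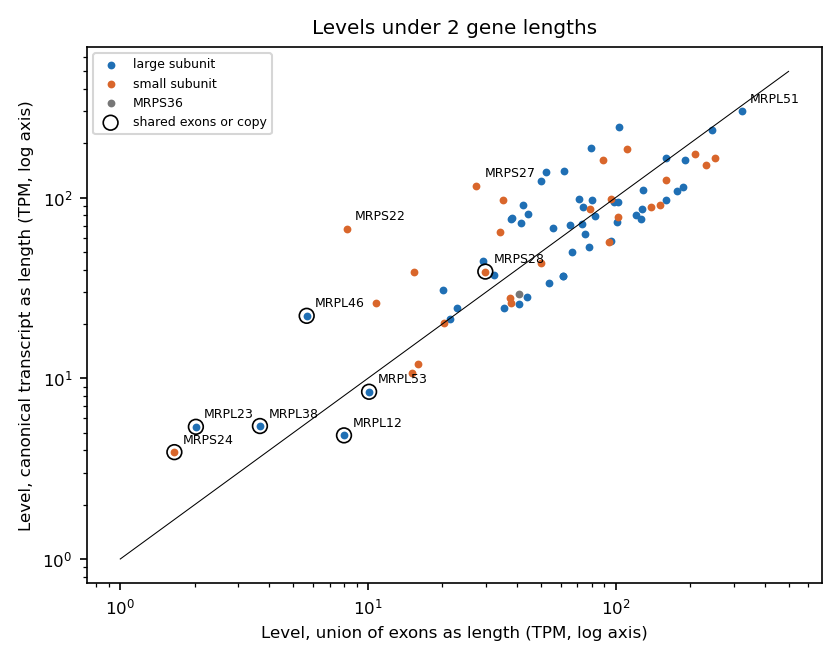
Mean level of each of the 78 genes in TPM with the canonical transcript as length (vertical log axis) against the union of exons as length (horizontal log axis), with a line of equality and rings around the 7 genes with shared exons or a copy. MRPS22 moved from 8.20 to 67.3 TPM, whereas MRPS24, MRPL23, MRPL38, MRPL12 and MRPL53 were the 5 lowest genes with the canonical length.

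The family was set beside the genes of the cytosolic ribosome and of the respiratory chain, the machine that the mitochondrial ribosome serves. The median over 77 cytosolic ribosomal protein genes was 558, 568 and 543 TPM, which was 8.97 ± 0.149 times that of the mitochondrial family. The median over 74 nuclear genes for respiratory chain subunits was 86.7, 85.5 and 79.4 TPM, 1.35 ± 0.0435 times that of the family. With the union of exons as length, the family thus lay close to the nuclear genes of the respiratory chain and far below the cytosolic ribosome in each replicate. These ratios are not given here with other lengths or in CPM. The high class held 76 of the 77 cytosolic and 62 of the 74 respiratory chain genes.

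Another 5 proteins of the mitochondrial ribosome carry other symbols, and all 5 of their genes were in the high class. AURKAIP1 was the highest of them with 187, 155 and 171 TPM, and DAP3, a small subunit protein that binds GTP, was the lowest at 48.1 TPM. Of 22 assembly factors, 13 were in the high class and 9 in the medium class, from 5.46 TPM for the maturation factor RBFA to 123 TPM for MALSU1, which keeps immature large subunits from joining. Of 14 translation factors, 9 were in the high class and 5 in the medium class, from 10.4 TPM for the release factor paralogue MTRF1 to 425 TPM for the elongation factor TUFM. Of 19 synthetases that charge mitochondrial tRNAs, 11 were high and 8 medium, from 8.24 TPM for SARS2 to 228 TPM for KARS1, which also serves the cytosol. With the union of exons as length, the medians of these 3 lists were 33.2, 45.4 and 31.7 TPM, all below the median of the ribosomal proteins. Whether this order holds with the canonical length or in CPM is not given here. The 2 ribosomal RNAs of the organelle, MT-RNR1 with 256, 115 and 103 TPM and MT-RNR2 with 331, 250 and 212 TPM, were highest in replicate 1, in libraries from which ribosomal RNA had been depleted. Of 11 regulators of mitochondrial genes, 10 were in the high class, among them PPRC1 at 122 TPM, YY1 at 77.7 TPM, GABPA at 38.7 TPM and NRF1 at 30.2 TPM. PPARGC1A, a coactivator best known from energy-demanding tissues, was in the low class with 2.23, 2.01 and 2.32 TPM.

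The replicates agreed closely for these genes. All 78 had more than 3 reads in every replicate, from a lowest count of 10 to a highest of 2058, and 70 had at least 100 reads in each. The median CV over the family was 6.04%, where the CV expected from read numbers alone had a median of 4.97%. An SD over 3 values tends to fall below the expected one, so these are unlike measures. Between its quartiles of read number, the 38 genes of the family had a median CV of 5.82% and 3249 other protein-coding genes had 5.78%. The CV exceeded 10% in 14 genes, of which 7 had at least 100 reads in each replicate. Over 2 replicates, the median CV was 3.07% without replicate 3, 4.85% without replicate 2 and 6.06% without replicate 1. A CV over 2 values is unlike one over 3.

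The level in replicate 3, set against the mean of replicates 1 and 2, went with the GC content of exons. Over the 70 genes with at least 100 reads, the median log2 ratio of TPM in replicate 3 to the mean of replicates 1 and 2 was -0.06, against -0.03 over 9386 protein-coding genes, and 23 of the 70 genes were higher in replicate 3 against 41.3% of protein-coding genes. Of 29 genes with under 45% GC, 5 were higher in replicate 3. Of 14 genes with 55% GC or more, 11 were higher. In the same GC ranges 25.7% and 76.5% of protein-coding genes were higher. Spearman's rho between exon GC and this ratio was 0.496 across the 70 genes, which share their libraries, and 0.418 across protein-coding genes. MRPL33, at 43.6% GC, had the lowest log2 ratio, -0.37. MRPL54, at 62.5% GC, had the highest, 0.26, with 71.0, 66.1 and 81.9 TPM. In some genes of high GC replicate 2 was the one apart. MRPL41, at 66.7% GC, had 102, 80.6 and 105 TPM, and MRPS34, at 64.6% GC, had 265, 228 and 261 TPM. MRPS26, at 61.9% GC, was highest in replicate 2 instead, with 154, 162 and 140 TPM. The ratios of replicates 1 and 2 are not set against GC here. After correction for exon GC the family's median was -0.02. The corrected median over protein-coding genes is not given beside it, and the part of GC in the family's ratio was not tested.

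**Figure D3:**
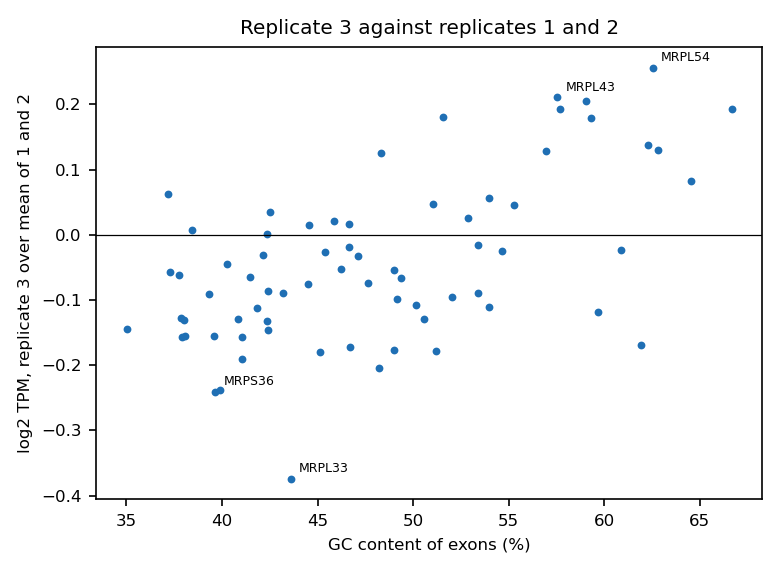
The log2 ratio of TPM in replicate 3 to the mean of replicates 1 and 2 (vertical axis) against the GC content of exons in percent (horizontal axis) for the 70 genes with at least 100 reads in each replicate, 1 point a gene. Of the 14 genes at 55% GC or more, 11 lie above 0, and of the 29 genes under 45% GC, 5 do.

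The 78 genes lie on 21 chromosomes, and many of them start back to back with another gene. A divergent partner, meaning a protein-coding gene on the opposite strand with its start within 1000 bp upstream, was found for 26 of the 78 genes (33.3%), against 9.45% of protein-coding genes and 14.7% of those in the high class. The share was 33.8% for the nuclear genes of the respiratory chain and 16.9% for cytosolic ribosomal protein genes. The starts were a median of 192 bp apart, and 14 of the pairs lay within 200 bp. With the union of exons as length, in 20 of the 26 pairs the mitochondrial ribosomal protein gene was the higher one in every replicate. MRPL37, for example, had 163, 155 and 162 TPM and its partner CYB5RL had 6.03, 7.52 and 6.06 TPM. MRPS12 had 78.7 ± 4.36 TPM and its partner SARS2, the seryl-tRNA synthetase of the same organelle, had 8.24 ± 2.18 TPM, with 77.5% of its canonical transcript shared with another gene on the same strand. MRPL47 had 188 ± 10.9 TPM and its partner NDUFB5, a subunit of complex I, had 34.8 ± 1.64 TPM. In these pairs the levels of the 2 genes did not overlap between replicates. The partner was the higher gene in every replicate in 5 pairs. These were MRPL18 with the chaperonin gene TCP1 (451 ± 27.4 TPM), MRPL49 with the cytosolic ribosomal protein gene FAU (434 ± 17.8 TPM), MRPL57 with the kinetochore gene SKA3, MRPL43 with TWNK, and MRPL46 with MRPS11. TWNK encodes the helicase that replicates mitochondrial DNA and had 55.9 TPM on average, where MRPL43 had 42.5, 38.0 and 46.6 TPM. With the canonical length MRPL43 was at 91.6 and TWNK at 38.6 TPM, so that this order turned. MRPL46 and MRPS11 are both members of the family, so their pair counts once from each side. Their order turned as well, with MRPL46, one of the 7 genes with shared exons or a copy, at 22.2 and MRPS11 at 20.2 TPM. With this length the family's gene was the higher one in every replicate in 21 pairs, 18 of them the same as with the union of exons, and MRPL30 (28.4 TPM) lay below its partner MITD1 (49.1 TPM). The partner had 50% or more of its canonical transcript shared with another gene in 4 of the 26 pairs. PPP1R10, the partner of MRPS18B, had 102, 95.8 and 96.1 TPM, above MRPS18B in replicate 1 and below it in the others. The partners had a median of 17.7 TPM and 10 of them were in the high class.

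**Figure D4:**
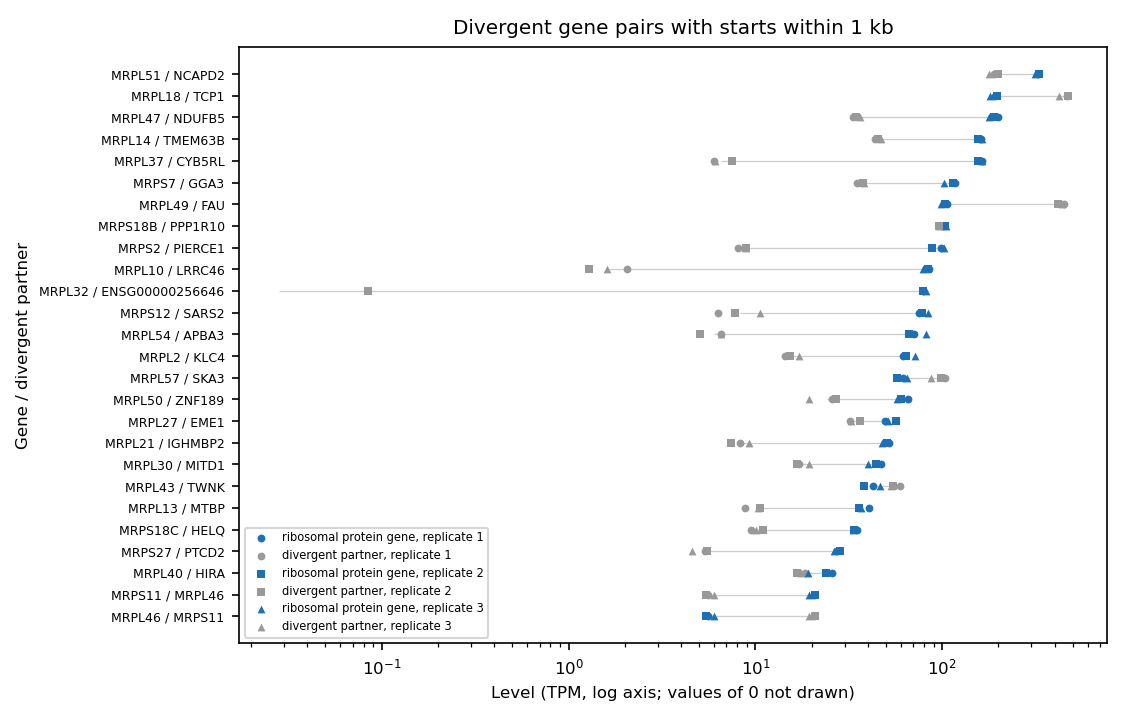
Levels in TPM on a log axis of the 26 genes with a divergent partner (blue) and of the partner (grey), with a circle, square and triangle for replicates 1, 2 and 3 and a line between the means. In 20 pairs the blue points lie to the right of the grey points in every replicate with the union of exons as length, 18 of them also with the canonical length, and values of 0 are not drawn.

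The promoters of the family were searched for short motifs. Windows from 250 bp before to 50 bp after the start were taken from RefSeq (GRCh38.p14), which held 69 of the 78 genes and 15345 protein-coding genes in all. The letters CCGGAAG, the core bound by ETS factors such as GABPA, were found on either strand in 29 of the 69 windows (42.0%) and in 14.4% of all windows. The letters AAGATGG, the core bound by YY1, were found in 23 windows (33.3%) against 6.43% of all. A longer form in which this core is followed by CGGC was found in 10 windows (14.5%) against 1.40%. The palindrome bound by NRF1, searched as GCGC and TGCGC with any single base between them, was found in 8 windows (11.6%) against 8.60%. The CCAAT box (CCAATC) was found in 17.4% against 18.5%, the E-box (CACGTG) in 8.70% against 8.89% and the TATA box (TATAAA) in 2.90% against 9.63%. The ETS and YY1 letters were thus the 2 motifs found at over 2 times their background share in the family. In the windows of respiratory chain genes the ETS, YY1 and NRF1 letters had shares of 32.8%, 26.2% and 26.2%, and in those of cytosolic ribosomal protein genes 33.9%, 12.9% and 9.68%. No test was made of these differences. A match is a description of the sequence and does not show that a factor binds.

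**Figure D5:**
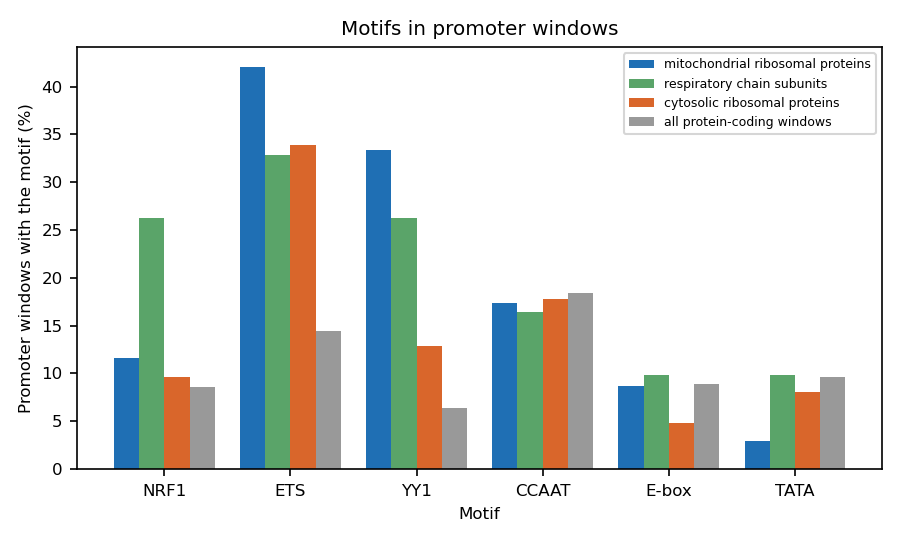
Share of promoter windows in percent that hold each motif on either strand, for 69 mitochondrial ribosomal protein genes, 61 respiratory chain genes, 62 cytosolic ribosomal protein genes and all 15345 protein-coding windows. The ETS and YY1 bars of the mitochondrial family, 42.0% and 33.3%, are the highest of their groups, and its NRF1 bar, 11.6%, lies below the 26.2% of the respiratory chain genes.

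The YY1 letters lay mostly downstream of the start. They were on the gene's own strand after the start in 16 of the 69 windows (23.2%), against 2.65% of all windows, and before the start on either strand in 7 windows (10.1%), against 3.32%. In 12 genes the ATG within these letters was the annotated start codon of the canonical transcript, among them MRPS18A, MRPS18B, MRPS27, MRPS24 and MRPL45. At that place the letters are thus part of the coding sequence as well. The start codon was not looked up over all windows, so these 12 genes have no background share beside them. Of the 69 windows, 43 held the ETS or the YY1 letters, 9 held both, and 26 (37.7%) held neither, against 80.5% of all windows. The genes with the YY1 core had a median of 79.7 TPM and those without had 54.1 TPM, but the 10 genes with the longer form had 61.5 TPM and the 59 without had 73.0 TPM. The genes with the ETS letters had 55.9 TPM and those without had 72.6 TPM.

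The windows of 5 genes are shown for the highest gene of each subunit by the union of exons and for 3 genes of divergent pairs, from 5′ to 3′ on the gene's strand, with the ETS and YY1 letters of either strand in capitals. They lie at chr12:6493213-6493512 (minus strand) for MRPL51, chr16:1773085-1773384 (minus) for MRPS34, chr19:38930694-38930993 (plus) for MRPS12, chr10:100987448-100987747 (minus) for MRPL43 and chr6:30617590-30617889 (plus) for MRPS18B.
MRPL51: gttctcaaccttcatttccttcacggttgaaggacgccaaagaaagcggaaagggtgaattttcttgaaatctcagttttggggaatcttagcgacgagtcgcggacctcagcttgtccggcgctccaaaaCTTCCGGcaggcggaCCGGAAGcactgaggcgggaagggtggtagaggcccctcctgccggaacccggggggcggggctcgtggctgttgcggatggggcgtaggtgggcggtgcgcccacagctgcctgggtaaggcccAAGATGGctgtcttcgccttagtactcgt
MRPS34: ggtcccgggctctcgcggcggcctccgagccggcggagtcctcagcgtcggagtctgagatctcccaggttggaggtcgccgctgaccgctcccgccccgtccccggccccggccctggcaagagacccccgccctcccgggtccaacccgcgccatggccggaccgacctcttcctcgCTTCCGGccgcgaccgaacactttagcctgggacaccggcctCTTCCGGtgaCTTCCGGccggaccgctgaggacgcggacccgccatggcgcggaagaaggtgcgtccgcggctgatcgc
MRPS12: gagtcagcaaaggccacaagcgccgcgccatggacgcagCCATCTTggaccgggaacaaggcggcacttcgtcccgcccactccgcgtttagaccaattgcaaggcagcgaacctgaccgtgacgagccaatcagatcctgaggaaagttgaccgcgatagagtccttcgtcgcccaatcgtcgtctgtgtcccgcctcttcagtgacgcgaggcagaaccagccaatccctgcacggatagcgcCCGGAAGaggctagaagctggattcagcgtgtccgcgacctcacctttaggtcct
MRPL43: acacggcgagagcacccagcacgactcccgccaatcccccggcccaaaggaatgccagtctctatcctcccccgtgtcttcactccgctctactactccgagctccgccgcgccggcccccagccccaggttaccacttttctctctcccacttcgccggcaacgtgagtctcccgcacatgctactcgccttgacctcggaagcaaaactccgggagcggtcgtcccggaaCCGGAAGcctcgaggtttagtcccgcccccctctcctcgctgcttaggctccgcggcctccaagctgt
MRPS18B: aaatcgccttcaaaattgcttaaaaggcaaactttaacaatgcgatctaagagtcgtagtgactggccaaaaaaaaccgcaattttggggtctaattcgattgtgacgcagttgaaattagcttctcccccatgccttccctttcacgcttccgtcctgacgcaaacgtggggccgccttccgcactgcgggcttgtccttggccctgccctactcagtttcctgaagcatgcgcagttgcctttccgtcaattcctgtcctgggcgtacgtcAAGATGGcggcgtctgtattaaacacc
MRPL51, at 323 TPM, held the ETS letters 2 times on opposite strands and the YY1 letters after its start. MRPS34, at 252 TPM, held the ETS letters 3 times in the same orientation and no YY1 letters. The window of MRPS12 reaches back over the start of SARS2, 181 bp away, and held both motifs, with its YY1 letters on the other strand. MRPL43, which starts 46 bp from TWNK, held the ETS letters alone. MRPS18B held the YY1 letters at its start codon and no ETS letters.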

How the data were processed

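Total RNA of 3 replicates of H9 cells, depleted of ribosomal RNA, was sequenced. Per the labels and the study's methods, the authors trimmed reads with Trim Galore (version 0.4.4) and aligned them to GRCh38 with TopHat2 (version 2.1.1). The deposited counts are whole reads per gene, without normalization. How reads were assigned to genes, with which annotation and with or without strand, is not stated in the sources used here. The study's own TPM values came from Cufflinks (version 2.2.1) and were not used.

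Identifiers were matched to GENCODE release 44, in which 56948 of 58051 identifiers matched and 1103 received no level. TPM was computed over the matched genes with the union of a gene's exons as length. Sharing of exons was measured on the Ensembl canonical transcript against genes in the counts. Unshared exon bases as length left out bases shared on the same strand with any GENCODE gene, counted or not. By that wider measure MRPS5, MRPL2 and MRPS25 shared 97.1%, 52.1% and 43.4% of the canonical transcript, and none with counted genes. Copies of coding sequences were sought with blastn (version 2.17.0) at 98% identity over at least 50 bp, outside alternate haplotypes. Library totals of 8655155 to 12024802 reads set the counting error, and errors of this kind leave out PCR duplication. The chi-square per degree of freedom between replicates was 1.87 to 4.54 over protein-coding genes with 20 or more reads per pair, so no library was taken as deposited 2 times. Scaling factors came from edgeR (version 4.0.16) and DESeq2 (version 1.42.0) in R 4.3.3, and other steps used Python 3.11.15. The calculations were tested on simulated counts.

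With a single condition, no test was made, and values over genes are descriptions. The genes and lists were chosen with earlier results of these data known. Values in every replicate are given for the 5 highest and 5 lowest genes of each subunit, genes outside the high class, genes with 10% or more of their exon length shared, the gene with the largest CV, and MRPS18A, MRPS18B, MRPS18C, MRPL10, MRPL11, MRPL12, MRPL44, MRPL45, MRPL58 and MRPS12. Other genes named were chosen after their values were seen. Alternatives were the longest or canonical transcript or unshared exon bases as length, TMM or DESeq2 scaling, mitochondrial genes left out, CPM, the median of replicates, a filter below 10 reads, other class limits, a GC correction, subunits by symbol, and leaving out each replicate or the 7 genes with shared exons or a copy. The canonical length, for genes and for divergent pairs, and leaving out the 7 genes were chosen after seeing the data.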

Additional observations from a re-analysis of the deposited data

How the results depend on the processing

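Lengths, scaling and the choice of genes moved the values over the family, which have no test and no threshold. The median of 62.0 TPM became 65.0 with the longest transcript, 47.7 with unshared exon bases, 73.5 with the canonical transcript, 64.6 without mitochondrial genes in the total, 69.4 without the 7 genes with shared exons or a copy, and 41.2 in CPM. The sum of 6167 TPM became 4745 with unshared exon bases, 6309 with the canonical transcript, 6425 without mitochondrial genes and 3800 in CPM. The ratio of the large to the small subunit median, 1.46, became 1.28 with the longest transcript, 1.35 with unshared exon bases, 1.03 with the canonical transcript, 1.29 with subunits by symbol, 1.11 without the 7 genes and 0.833 in CPM, where its direction turned. The ratio of the highest to the lowest gene, 204, became 80.7 with the canonical transcript and 39.4 without the 7 genes. The log2 ratio of replicate 3, -0.063, became -0.017 after GC correction, -0.052 with TMM, -0.077 with DESeq2 and -0.033 in CPM. The number of genes in the high class, 63, ranged from 44 in CPM to 72 with classes over all genes. The causes of these shifts beyond the change of length, total or genes were not tested.

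Leaving out each replicate gave a median of 61.6 to 62.5 TPM, a sum of 6111 to 6223 TPM, 62 to 63 genes in the high class, a subunit ratio of 1.40 to 1.49, a highest to lowest ratio of 176 to 231 and a median CV of 3.07 to 6.06%. TMM and DESeq2 scaling moved no gene's mean beyond its SD, whereas the canonical length moved 71 of the 78. No paired analysis was possible because there was 1 group. Depth limits the lowest genes most: 4 had fewer than 30 reads in every replicate.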

Other observations

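Pseudogenes of the family, copies of its messages or genes elsewhere in the genome, held few of the counted reads. The counts list 79 of them with symbols derived from 36 of the 78 genes, most often from MRPS21 with 8. No read was counted on 54 of them in any replicate, and 5 had more than 3 reads in every replicate. All pseudogenes together held 90, 94 and 83 reads, against 39777, 45788 and 32569 reads on the 78 genes. The highest was MRPS18AP1, a processed pseudogene of MRPS18A, with 25, 27 and 28 reads and 17.6 ± 3.34 TPM, where MRPS18A itself had 102 ± 8.89 TPM. MRPS31P5 and MRPS31P4, which derive from MRPS31 and lie on the same chromosome as it, had 7.37 and 5.48 TPM. MRPS17P1 had 10, 13 and 10 reads, beside 74, 109 and 67 reads on MRPS17, one of the lower genes of the small subunit.

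The genes of the family were short for protein-coding genes. Their median canonical transcript had 1242 bp and their median exon GC content was 47.9%, against 2905 bp and 48.5% over protein-coding genes.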
